A study of Homo sapiens with 40 samples.

Results

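The alcohol dehydrogenase genes ADH1A, ADH1B, ADH1C, ADH4, ADH5 and ADH6 were examined in differentiated HepaRG cells, a human hepatic cell line. The 6 genes were taken by their names from the deposited expression tables, in which 56568 gene names are listed. The cells had been exposed for 6 days, from day 8 to day 14 of culture, in medium with serum and DMSO that the control cells also received. The 40 libraries formed 8 groups of 5. Apart from cells given solvent alone, there were groups with 100 pM, with 10 nM and with 1 µM of PCB 126, with 10 µg/L, with 1 mg/L and with 0.1 g/L of glyphosate, and with 10 µg/L of the herbicide Roundup. PCB 126, a polychlorinated biphenyl with dioxin-like action, activates the aryl hydrocarbon receptor (AhR), and glyphosate is the active ingredient of Roundup. All cells came from the same commercial line, and no label says whether the 5 libraries of a group were separate cultures, so p-values measure the spread between these libraries only. Abundance was given as FPKM, a measure of sequenced fragments scaled to transcript length and library size, and all transcripts named for a gene were summed. The tables hold no read counts. The study reports how many reads its samples had, but read depth was not examined here.

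Alcohol dehydrogenases are zinc enzymes that oxidise alcohols to aldehydes or ketones with NAD+ as cofactor. ADH1A, ADH1B and ADH1C encode the class I enzymes, which carry out most of the ethanol oxidation in human liver. ADH4 encodes the class II enzyme, also largely hepatic, and ADH5 the class III enzyme, a glutathione-dependent formaldehyde dehydrogenase found in nearly all tissues. ADH6 encodes the class V enzyme, and ADH7, the remaining gene of the family, encodes a class IV enzyme known from the upper digestive tract. All 7 genes lie side by side on the minus strand of human chromosome 4 (GRCh38).

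The 250 bases before the RefSeq start of each gene (GRCh38.p14) are shown for the class I genes, whose transcripts changed most, and for ADH5, whose change was smallest. Each is read on the gene's strand from 5′ to 3′. Capitals mark every match, on either strand, to GCGTG, the core of the element bound by the AhR and its partner, to CACGTG, the E-box, to CCAAT, to TATAAA and to GGGCGG, the GC box.
ADH1A, chr4:99290986-99291235: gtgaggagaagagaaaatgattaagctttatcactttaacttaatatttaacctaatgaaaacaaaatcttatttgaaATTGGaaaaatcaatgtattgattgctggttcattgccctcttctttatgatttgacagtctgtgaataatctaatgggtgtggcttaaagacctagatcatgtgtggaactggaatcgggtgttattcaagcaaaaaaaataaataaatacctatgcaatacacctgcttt
ADH1B, chr4:99321402-99321651: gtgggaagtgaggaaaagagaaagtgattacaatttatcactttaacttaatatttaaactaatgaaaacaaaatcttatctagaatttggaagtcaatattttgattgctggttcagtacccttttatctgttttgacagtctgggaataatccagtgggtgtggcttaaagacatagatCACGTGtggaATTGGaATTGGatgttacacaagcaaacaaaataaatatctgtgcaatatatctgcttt
ADH1C, chr4:99352747-99352996: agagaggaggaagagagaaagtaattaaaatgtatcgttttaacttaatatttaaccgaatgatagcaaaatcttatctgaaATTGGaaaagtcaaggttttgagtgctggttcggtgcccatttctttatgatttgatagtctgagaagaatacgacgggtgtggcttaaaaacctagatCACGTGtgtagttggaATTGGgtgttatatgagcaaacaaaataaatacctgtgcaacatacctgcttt
ADH5, chr4:99088789-99089038: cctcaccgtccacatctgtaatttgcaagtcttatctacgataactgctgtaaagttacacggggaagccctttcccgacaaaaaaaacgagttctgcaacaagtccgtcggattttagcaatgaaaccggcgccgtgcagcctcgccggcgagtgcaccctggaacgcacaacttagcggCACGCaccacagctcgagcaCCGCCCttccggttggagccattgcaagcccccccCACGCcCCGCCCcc
The class I windows resembled each other, with 82.2% identical positions between ADH1A and ADH1B and 81.5% between ADH1C and either of them. Their identity to the ADH5 window was 45.5% to 46.8%. The ADH5 window had a GC content of 58% and 21 CpG dinucleotides, against 31.6% to 35.6% GC and 1 to 6 CpG in the class I windows and medians of 58% and 11 over 35116 promoters. ADH5 held 2 matches to GCGTG, which start 69 and 14 bases before the gene, and 2 to GGGCGG. None of the other 5 windows held GCGTG, which 32.2% of all windows of this length hold. CACGTG, present in 6.34% of windows, lay 69 bases before both ADH1B and ADH1C and had no match in ADH1A. CCAAT, present in 32.0% of windows, had 1 match in ADH1A and 2 in each of ADH1B, ADH1C and ADH4. TATAAA, in 10.7% of windows, matched in ADH4 only, and GGGCGG, in 42.6%, in ADH5 only. The matches did not overlap each other and are letters in a window, not measured binding.

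In the control group the class I genes made up 75.9% ± 4.68 (SD, n = 5) of the summed FPKM of the 6 genes. ADH1A was the most abundant at 91.8 ± 24.7 FPKM (SD, n = 5), with ADH1B close behind at 84.0 ± 21.1, and ADH1A was the higher of the pair in 5 of 5 control libraries while their ranges overlapped. ADH5, at 40.5 ± 9.03 FPKM, and ADH1C, at 36.9 ± 13.0, followed and overlapped each other. ADH6 stood at 15.8 ± 2.72 FPKM and ADH4 at 9.77 ± 4.39, and ADH6 was higher than ADH4 in 39 of all 40 libraries. ADH1B lay above ADH5, and ADH1C above ADH6, without overlap among the controls. ADH7 was near 0 throughout, with a highest value of 0.0294 FPKM in any of the 40 libraries.

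All 3 class I transcripts were lower after 1 µM PCB 126. ADH1A had 95.6, 78.2, 67.7, 132 and 85.3 FPKM in control replicates 1 to 5 and 16.5, 39.4, 31.3, 65.6 and 35.9 FPKM at 1 µM. The highest of the 1 µM libraries was thus below the lowest control, and the mean was 41.1% of the control mean. The fitted log2 fold change of ADH1A was -1.35 ± 0.35 (SE), a 2.55-fold fall (limma, Benjamini-Hochberg adjusted p = 0.0404 over 9755 genes). Fold changes were computed from log2(FPKM + 1) and therefore understate the changes of low values.

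ADH1B had 90.8, 65.5, 65.4, 116 and 82.2 FPKM in the control libraries and 11.5, 30.9, 22.7, 53.8 and 30.4 FPKM at 1 µM. The groups did not overlap, and the 1 µM mean was 35.5% of the control mean. Its log2 fold change was -1.58 ± 0.38 (SE), a 3.00-fold fall (limma, adjusted p = 0.0231).

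ADH1C showed the largest fall of the 6 genes. It had 24.7, 35.4, 25.7, 56.2 and 42.3 FPKM in the control libraries and was listed at 0 in 1 µM replicate 1, with 7.68, 7.30, 11.9 and 7.32 FPKM in the other 1 µM libraries. The groups did not overlap. The log2 fold change was -2.59 ± 0.53 (SE) with an adjusted p of 0.00655 (limma), and only 7 of the 9755 genes tested had a lower one. ADH1A ranked 126 and ADH1B 76 in the same order, counted from the lowest.

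ADH4, ADH6 and ADH5 had lower means at 1 µM but did not pass the test. ADH4 had 12.8, 4.93, 6.68, 15.6 and 8.82 FPKM in the control libraries and 1.62, 3.98, 2.99, 6.35 and 3.17 FPKM at 1 µM, so that 4 of the 5 treated libraries lay below every control. Its log2 fold change was -1.20 (95% interval -2.01 to -0.39, limma, adjusted p = 0.131). ADH6 had 15.8, 15.9, 17.1, 18.7 and 11.4 FPKM in the controls and 3.32, 11.7, 8.86, 13.3 and 8.47 FPKM at 1 µM, with 3 libraries below every control. Its log2 fold change was -0.82 (-1.44 to -0.19, limma, adjusted p = 0.206). ADH5 had 48.1, 45.7, 39.4, 43.7 and 25.4 FPKM in the controls and 19.2, 35.1, 33.1, 42.8 and 25 FPKM at 1 µM, and these ranges largely overlapped. Its log2 fold change was -0.39 (-0.95 to 0.17, limma, adjusted p = 0.526).

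In all, 3 of the 6 genes passed the test at 1 µM, each of them lower, whereas 1.87% of all genes tested passed it and 1.22% did so with a lower value. The 3 class I genes were also the members in which every treated library was below every control library, a pattern shown by 1.64% of genes. Over all tested genes the log2 fold change had a median of -0.26, and of the 182 genes called 63 were higher and 119 lower. After scaling of each library to its 75th percentile this median was -0.04 and the split was 505 higher and 595 lower. The members then stood at -1.10 for ADH1A, -1.34 for ADH1B, -2.51 for ADH1C, -1.02 for ADH4, -0.14 for ADH5 and -0.60 for ADH6. ADH6 passed the test under this scaling (limma, adjusted p = 0.0461), which called 11.3% of all genes. Exact permutation tests of 5 libraries against 5, 2-sided, gave p = 0.00794 for each class I gene, the smallest that this design allows, and p = 0.0159 for ADH4, 0.0238 for ADH6 and 0.151 for ADH5, among 42 such tests without adjustment. The calls of ADH1A and ADH1B did not hold without certain single libraries. ADH1B was no longer called without control replicate 1 or 4 or 1 µM replicate 1 or 3, and ADH1A without any of these, control replicate 2, 1 µM replicate 2 or 5, or 100 pM replicate 2 or 3, with adjusted p of up to 0.132 (limma), while ADH1C was called without any single library.

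**Figure D1:**
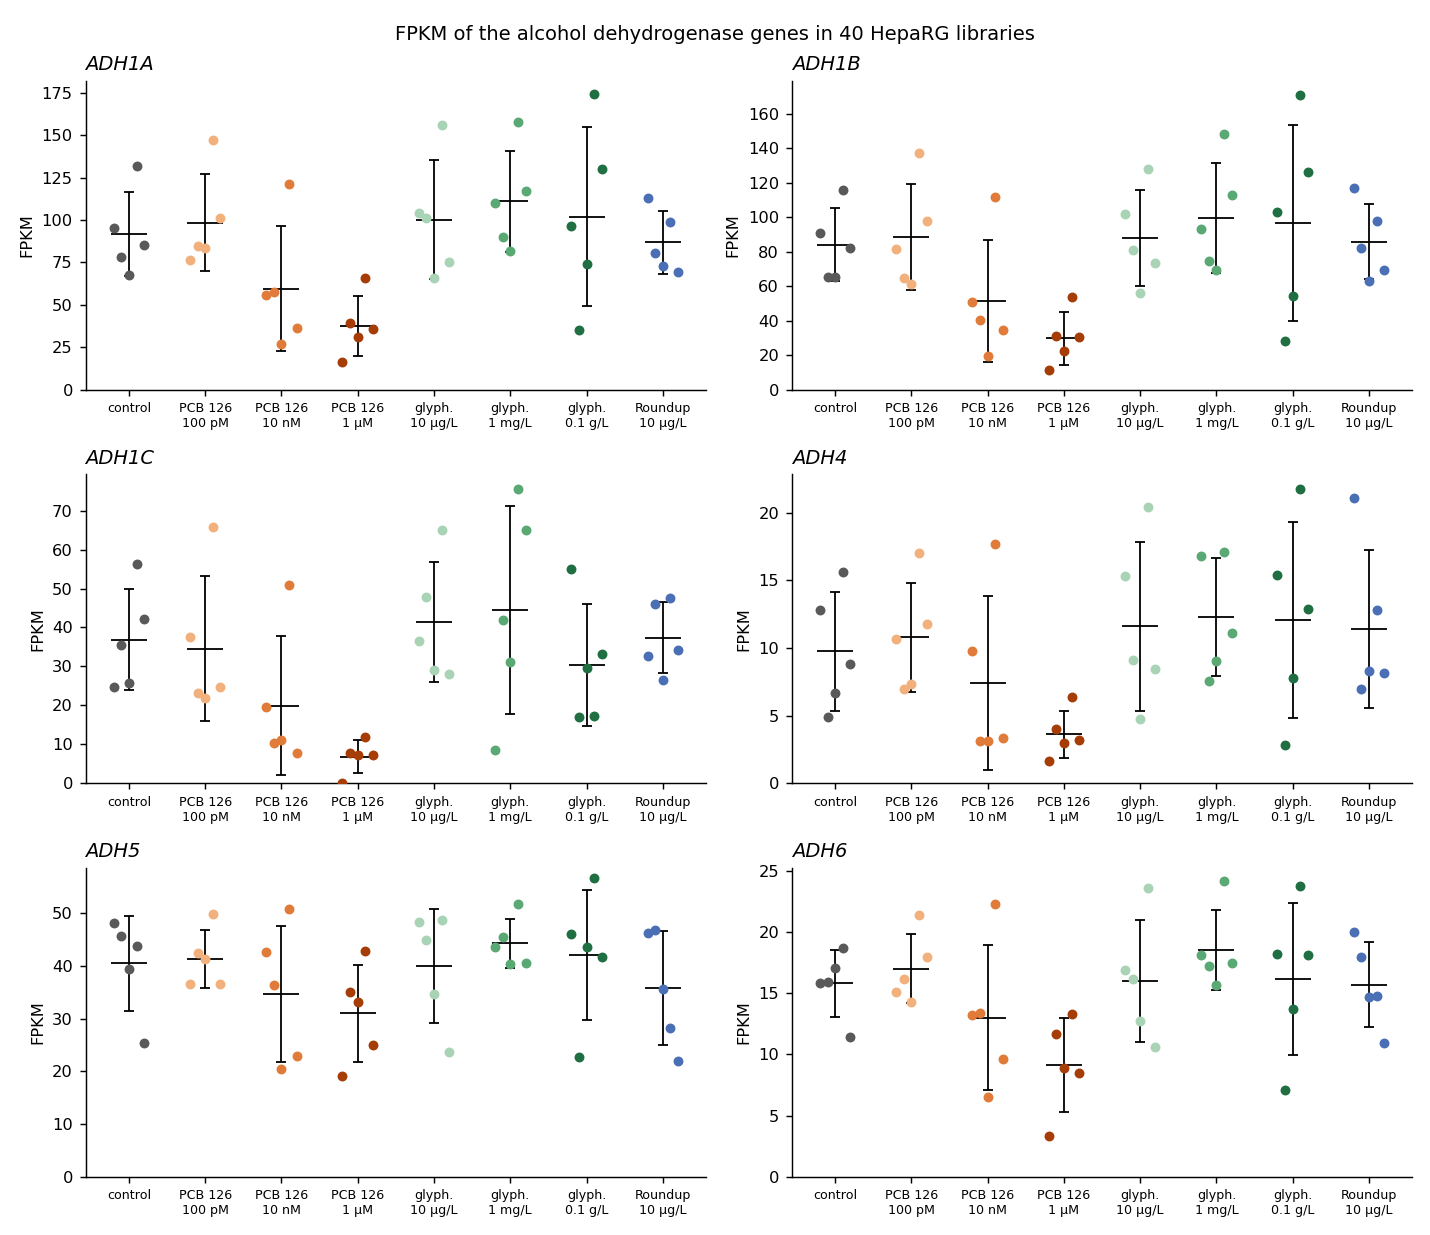
FPKM (vertical axis, from 0, scaled to each gene) of the 6 genes in the 40 libraries by group. Points are libraries, the wide bar is the mean and the error bar the SD (n = 5). At 1 µM PCB 126 all ADH1A, ADH1B and ADH1C points lie below the lowest control point, and the herbicide groups overlap the controls.

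At the lower concentrations of PCB 126 no member passed the test. At 100 pM ADH1A ranged from 76.5 to 147 FPKM, ADH1B from 61.5 to 137 and ADH1C from 21.9 to 65.8, all overlapping the controls, and 0% of all genes were called (limma, 116 genes at an unadjusted p under 0.05). The log2 fold changes of the 6 members lay between -0.15 and 0.16. At 10 nM ADH1A had 56, 57.5, 27.1, 121 and 36.5 FPKM and ADH1B had 51.1, 40.7, 19.8, 112 and 34.6 FPKM. ADH1C had 19.5, 10.3, 11.2, 51.0 and 7.72 FPKM. In each of these genes 4 of the 5 libraries at 10 nM lay below every control, and replicate 4 lay inside the control range. The log2 fold changes at 10 nM were -0.76 ± 0.35 for ADH1A, -0.89 ± 0.38 for ADH1B and -1.12 ± 0.53 for ADH1C (SE), with the same adjusted p of 0.865 in limma and unadjusted p of 0.0382, 0.0272 and 0.0451. Exact permutation tests gave 0.103, 0.0714 and 0.0635 in the same order. At this concentration 0.205% of all genes were called, and 0.246% had every treated library below every control library, which no member had.

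Over the 4 groups from control to 1 µM, taken as equal steps, the class I genes followed a falling trend. The slope per step on the log2 scale was -0.49 ± 0.11 (SE) for ADH1A, -0.57 ± 0.12 for ADH1B and -0.87 ± 0.17 for ADH1C (limma, adjusted p = 0.01, 0.00583 and 0.00256). ADH4 had a slope of -0.43 ± 0.12 with an adjusted p of 0.0504 and ADH6 one of -0.29 ± 0.10 with 0.0985 (limma). ADH5 had a slope of -0.15 ± 0.09 (limma, adjusted p = 0.339). The trend called 3.70% of all genes and 2.82% in the falling direction. An F-test across the 4 groups called ADH1B and ADH1C (limma, adjusted p = 0.0381 and 0.0176) but not ADH1A (0.0562), against 1.39% of all genes.

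**Figure D2:**
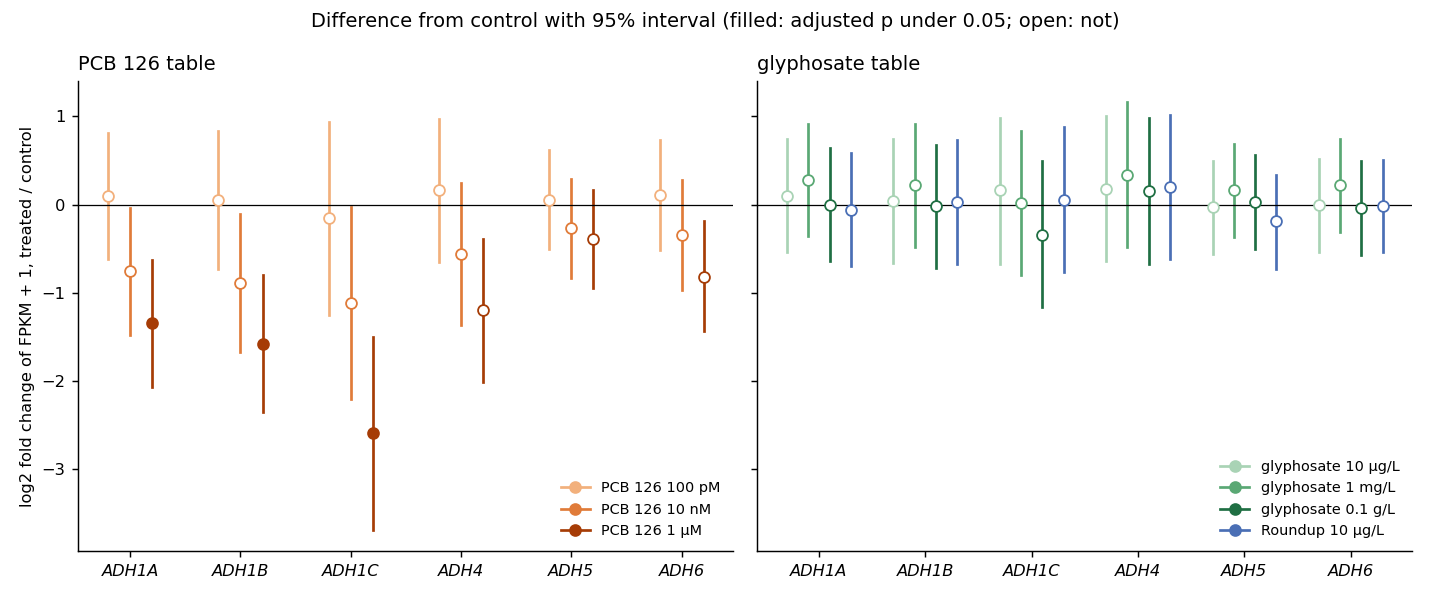
Log2 fold change of FPKM + 1 against the control group (vertical axis) for each gene and treatment, with 95% intervals from limma. Filled points passed the adjusted p of 0.05, which only ADH1A, ADH1B and ADH1C at 1 µM PCB 126 did, and all herbicide intervals include 0.

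Because a passed test in some members and not in others does not show that the members differ, each gene was set against ADH5 in the same library, a comparison chosen after the values were seen. ADH5 had the smallest change of the 6 genes at 1 µM in these same data. Each other gene's mean ratio to it therefore had to fall there, and the p-values share this choice. The log2 ratio of ADH1A to ADH5 was 1.16 ± 0.45 in the controls and 0.20 ± 0.35 at 1 µM, a difference of -0.96 (SD, n = 5). The ratio of ADH1B to ADH5 went from 1.03 ± 0.48 to -0.16 ± 0.46 and that of ADH1C from -0.16 ± 0.68 to -2.37 ± 1.11. For each of these 3 ratios the groups did not overlap (exact permutation test, 2-sided, p = 0.00794, unadjusted, 15 ratios tested over 3 concentrations). ADH4 and ADH6 differed from ADH5 by -0.81 and -0.43 (exact permutation p = 0.0476 and 0.0397), with overlapping groups. These p-values were close to 0.05 and did not hold without certain single libraries, where fewer libraries were also compared. That of ADH4 was above 0.05 without any single library other than control replicate 2 or 3, reaching 0.0952 (exact permutation test). ADH6 exceeded it without control replicate 3, 4 or 5 or 1 µM replicate 1, 3 or 4, reaching 0.0794 (exact permutation test). With each library left out in turn, the ADH4 difference ran from -1.05 to -0.67 and that of ADH6 from -0.49 to -0.30. In the order of means ADH5 came after ADH1B among the controls, but at 1 µM it stood with 31.0 FPKM between ADH1A at 37.7 and ADH1B at 29.8, and these neighbours overlapped. The class I share of the summed FPKM was 61.3% ± 5.95 at 1 µM, ranging from 53.8% to 67.8%, below the control range of 71.5% to 82.2%.

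**Figure D3:**
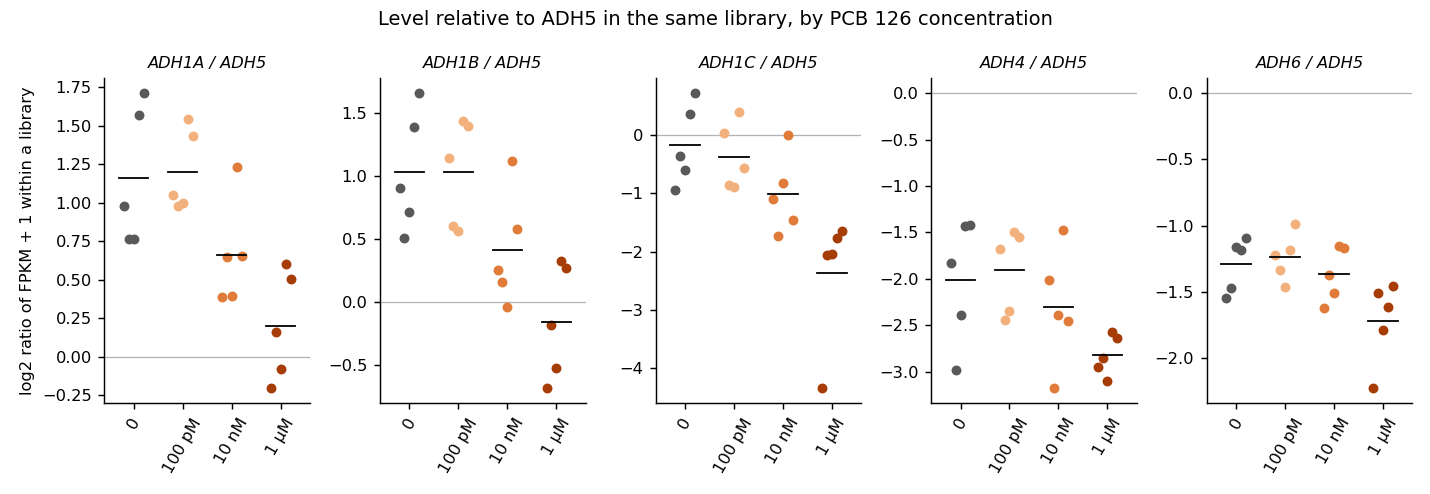
Log2 ratio of FPKM + 1 of each gene to ADH5 in the same library (vertical axis, scaled to each panel) by PCB 126 concentration. Points are libraries and short horizontal lines mark the means of 5. The ADH1A, ADH1B and ADH1C ratios at 1 µM lie below all control ratios.

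The class I genes also differed among themselves. ADH1C fell further than ADH1A, by -1.24 on the log2 scale within libraries at 1 µM (exact permutation test, 2-sided, p = 0.00794). It also fell further than ADH1B, by -1.01 with overlapping groups (exact permutation p = 0.0159). Without 1 µM replicate 1, where ADH1C was listed at 0, these differences were -0.85 and -0.65 (exact permutation p = 0.0159 and 0.0317), and without the libraries that stand apart, described at the end, -0.78 and -0.56 (exact permutation p = 0.0571 and 0.114). ADH1B fell slightly further than ADH1A, by -0.24 with overlapping groups (exact permutation p = 0.0159, 9 ratios tested, unadjusted). Without the libraries that stand apart this difference was -0.22 (exact permutation p = 0.0571). That setting leaves 4 control and 3 treated libraries, for which the smallest possible exact permutation p is 0.0286. At 10 nM the corresponding differences were -0.36, -0.23 and -0.13, and none was beyond the spread between libraries (exact permutation p = 0.214, 0.444 and 0.254).

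The way the transcripts were assembled bears on ADH1C. Its main transcript, ENST00000515683, carried 97.8% of the named ADH1C signal. An assembled transcript without a gene name spans ADH1C and reaches slightly past both ends of its named transcripts. It was above 1 FPKM in 26 of the 40 libraries, with up to 24.4 FPKM. In 1 µM replicate 1, where named ADH1C was listed at 0, this transcript had 3.67 FPKM. With it added, ADH1C had 40.1, 38, 27.8, 56.4 and 42.4 FPKM in the control libraries and 3.67, 9.45, 7.34, 11.9 and 7.32 FPKM at 1 µM. The log2 fold change was then -2.27 ± 0.37 (SE), a 4.83-fold fall (limma, adjusted p = 0.000722). The log2 ratio to ADH1A became tighter, at -1.15 ± 0.13 in the controls and -2.07 ± 0.19 at 1 µM (SD, n = 5), a difference of -0.92 (exact permutation p = 0.00794). The ratio to ADH1B differed by -0.69 (exact permutation p = 0.00794). This sum was added after the data were seen.

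**Figure D4:**
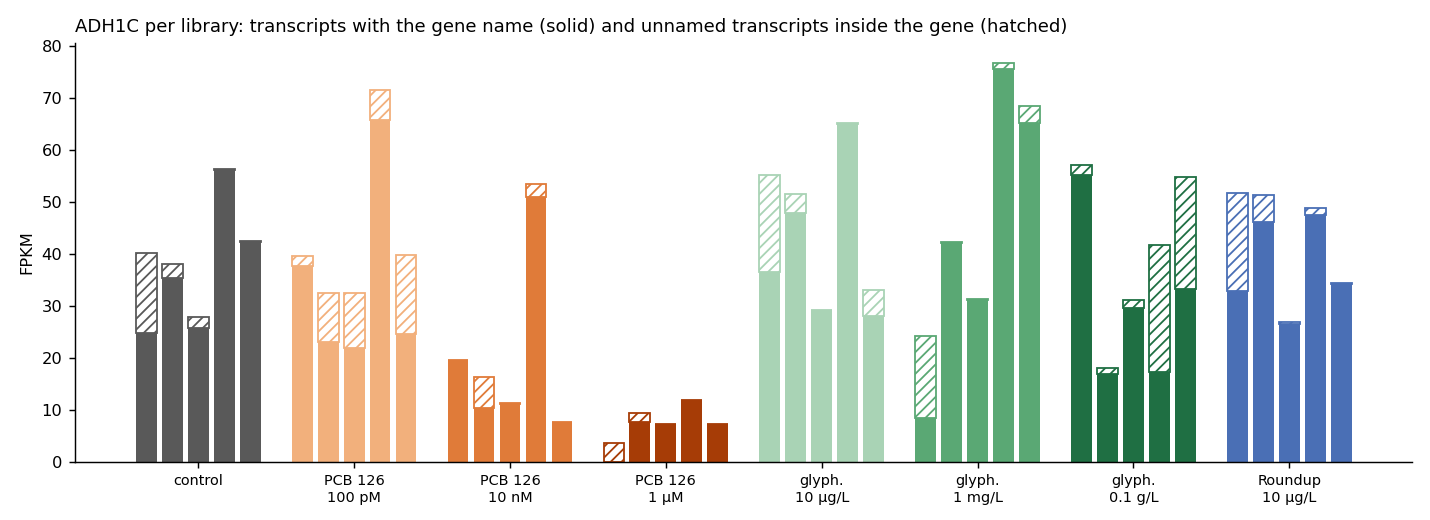
FPKM of ADH1C (vertical axis, from 0) in each of the 40 libraries, in order of replicate 1 to 5 within a group. Solid bars are transcripts with the gene name. Hatched parts are the unnamed transcript that spans the gene, which makes up all 3.67 FPKM of 1 µM replicate 1.

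For ADH1B a pair of transcripts that differ by 13 bases in length, ENST00000305046 and ENST00000625860, took most of the signal in varying proportion. Control replicate 1 had 1.42 and 88.6 FPKM on them and control replicate 2 had 61.8 and 2.61. The gene sum was therefore used, and the more abundant transcript alone gave a log2 fold change of -0.82 at 1 µM (limma, adjusted p = 0.614). The class I genes share some sequence, so that 3.77% of the 75-base windows of the main ADH1A transcript also occur in ADH1B and 7.90% of those of ADH1C in ADH1B, whereas none occur in ADH4, ADH5 or ADH6. The assembly placed ADH1A, ADH1B and ADH1C in the same locus, and this locus as a single sum had a log2 fold change of -1.61 at 1 µM (limma, adjusted p = 0.000873).

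None of the herbicide treatments changed a member beyond the spread between libraries. Across the 4 herbicide groups ADH1A ranged from 35.4 to 174 FPKM, ADH1B from 28.5 to 171 and ADH1C from 8.48 to 75.5, and each group overlapped the controls. The means of ADH1A were 100.2 ± 35.1 FPKM at 10 µg/L, 111 ± 29.9 at 1 mg/L and 102 ± 52.8 at 0.1 g/L of glyphosate, and 87.0 ± 18.6 with Roundup (SD, n = 5), against 91.8 ± 24.7 in the controls. ADH1C was at 41.3 ± 15.4, 44.5 ± 26.8, 30.4 ± 15.6 and 37.4 ± 9.03 FPKM in the same order. With the unnamed transcript that spans ADH1C added, these means were 46.9 ± 15.3, 48.6 ± 23.1, 40.5 ± 16.4 and 42.6 ± 11.4 FPKM. The control mean was then 40.9 ± 10.3 (SD, n = 5). The 24 log2 fold changes against control lay between -0.34 (ADH1C at 0.1 g/L) and 0.34 (ADH4 at 1 mg/L), and the 95% interval for ADH1C at 0.1 g/L ran from -1.16 to 0.49. The value of -1.35 seen in ADH1A at 1 µM PCB 126 was outside all 24 intervals. No member was called in limma against control, in the F-test (adjusted p = 0.995 for all 6 members) or over the glyphosate steps, and 0% of all 9533 genes tested were called in any of these comparisons, with between 84 and 165 genes at an unadjusted p under 0.05.

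Roundup and glyphosate, its active ingredient, were both given at 10 µg/L. ADH1A had 113, 80.4, 73.2, 98.7 and 69.4 FPKM with Roundup and 104, 101, 65.6, 156 and 75.5 FPKM with glyphosate, and the groups overlapped. The 6 members differed by between -0.16 and 0.02 on the log2 scale, the interval for ADH1A being -0.80 to 0.48 (limma, adjusted p = 0.974).

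Levels varied together across libraries. ADH1A and ADH1B had a Pearson r of 0.985 over the 40 libraries on the log2 scale, and of 0.973 after removal of the group means. ADH4 followed both, with r of 0.919 and 0.934, and ADH6 with 0.935 and 0.918, whereas ADH1C and ADH5 were least alike at 0.541. The libraries share their depth and scaling across genes, so these values are a description. Replicate 4 was the highest of its group in 7 of the 8 groups for ADH1A, ADH1B, ADH1C, ADH4 and ADH6, and in 6 for ADH5.

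The genes with the most similar profiles were taken from 12648 genes with a mean of at least 1 FPKM. ADH1A was closest to ADH1B, then to PPP1R3B (r = 0.941) and PON1, the serum paraoxonase (0.940). ADH1B was closest to ADH1A, ADH4 and ADH6, and ADH4 to ADH1B, ADH1A and CYP2E1 (0.887), the ethanol-inducible cytochrome P450. ADH1C was closest to HSD17B6 (0.886). ADH6 was closest to ACSM2B (0.958), SCD, the stearoyl-CoA desaturase (0.956), and ACSM5 (0.951). ADH5 was closest to NDFIP1 (0.982), PLS3 (0.981) and TOMM20 (0.976), and after scaling to the 75th percentile none of these 3 remained among its closest, which were ADH1A (0.855), ADH4 (0.848) and C11orf54 (0.843). The same scaling kept 1 of the 3 for ADH6, ACSM2B, behind ADH1B (0.937) and ADH1A (0.928). It kept 2 of 3 for ADH1A, ADH1C and ADH4, where CYP2E1 dropped out for ADH4 and PON1 for ADH1A, and all 3 for ADH1B. By Spearman's rho the gene closest to ADH1C was ADH1B (0.753), ahead of HSD17B6 (0.745).

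Other genes of the pathways were described by lists. Of 10 genes of ethanol and aldehyde oxidation 9 passed the filter on low values, and none was called at 1 µM, with a median log2 fold change of -0.44. Over the PCB 126 steps CYP2E1 and ALDH1B1, a mitochondrial aldehyde dehydrogenase, fell, by -0.35 and -0.32 per step (limma, adjusted p = 0.0396 and 0.0463). ALDH2, the mitochondrial enzyme that clears acetaldehyde, had 20.5 ± 12.7 FPKM in the controls and 43.7 ± 32.4 at 1 µM (SD, n = 5), a log2 fold change of 1.05 that did not pass (limma, adjusted p = 0.245). None of 5 tested genes of the formaldehyde and glutathione branch around ADH5 was called at 1 µM or over the steps (median -0.12 at 1 µM), and none of 9 tested zinc and related medium-chain dehydrogenases (median -0.20).

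Of 12 retinol oxidation genes 6 were tested, and ALDH1A3, a retinaldehyde dehydrogenase, rose, from 0.635 ± 0.352 to 6.48 ± 1.72 FPKM at 1 µM (limma, log2 fold change 2.19, adjusted p = 2.29e-05). Of 10 transcription factors of hepatocytes 9 were tested, and NR1H4, the bile acid receptor FXR, fell, from 8.38 ± 3.75 to 2.99 ± 0.927 FPKM (log2 fold change -1.19, adjusted p = 0.0348). HNF4A had a log2 fold change of 0.41 (adjusted p = 0.526) and CEBPA of -0.70 (adjusted p = 0.231, limma). Of the 10 neighbours of the cluster on chromosome 4, 7 were tested and none was called, with log2 fold changes from -0.51 to -0.08 at 1 µM. METAP1, beside ADH5, stood at -0.51 (adjusted p = 0.398) and C4orf17, beyond ADH7, had at most 0.0336 FPKM in any library.

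The exposure and the cell type were checked with marker genes. Of 5 AhR target genes 4 rose at 10 nM and at 1 µM, and CYP1A1 went from 2.33 ± 3.40 FPKM in the controls to 235 ± 108 at 1 µM (limma, log2 fold change 6.61, adjusted p = 7.44e-05). AHRR was the 1 not called (log2 fold change 0.21 at 1 µM, limma, adjusted p = 0.736). At 100 pM none of the 5 was called, but all had log2 fold changes above 0, with a median of 1.22. CYP1A1 was at 86.2 ± 133 FPKM there (SD, n = 5). All 10 hepatocyte markers exceeded 1 FPKM in every group. Their summed level was 14785 to 23306 FPKM in the controls and 6104 to 14761 at 1 µM. ALB weighed most in this sum, with a control mean of 11206 FPKM against 19843 for all 10. It was not called at 1 µM (log2 fold change -1.08, limma, adjusted p = 0.0564). TTR and FGB, 2 of the 10, were called lower (log2 fold changes -1.62 and -1.37, limma, adjusted p = 0.00797 and 0.0259, list median -0.77). In all, 8 of the 10 had values below 0, while CYP3A4 and ASGR1 stood at 0.39 and 0.12 (limma, adjusted p = 0.601 and 0.834). Of 10 biliary or progenitor markers 4 exceeded 1 FPKM in the controls, and EPCAM was at 0 or close to it. The sum, mostly KRT19, was 271 to 570.4 FPKM in the controls and 164 to 271 at 1 µM. KRT19, SOX9, SPP1 and ANXA4, the 4 tested, had log2 fold changes of -0.87, -0.65, -1.10 and -1.07 (median -0.97). None of the 4 was called at 1 µM (limma, adjusted p = 0.203, 0.313, 0.0619 and 0.0565). Over the PCB 126 steps SPP1 and ANXA4 were called lower (limma, adjusted p = 0.0252 and 0.0215). Of 10 mesenchymal markers 6 exceeded 1 FPKM in the controls, with a sum of 41.3 to 92.8 FPKM there and 51.0 to 191 at 1 µM. Of the 6, COL3A1 was called lower (log2 fold change -3.07, adjusted p = 2.29e-05), while LUM, DCN and COL1A1 had values of 1.03, 1.02 and 0.64 that did not pass (limma, adjusted p = 0.18, 0.0886 and 0.38). ACTA2 and PDGFRB had values of -0.92 and -0.75 that did not pass either (limma, adjusted p = 0.3 and 0.142). The median of the tested mesenchymal markers was -0.05. In such mixed cultures fewer cells of a type and less RNA per cell cannot be told apart.

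Against the mean log2 level of the 10 hepatocyte markers in the same library, ADH1B and ADH1C were lower at 1 µM, by -0.85 and -1.86, without overlap (exact permutation test, 2-sided, p = 0.00794 for each, 18 such tests, unadjusted). ADH1A was lower by -0.61 with overlapping groups (exact permutation p = 0.0159, and 0.114 without the libraries that stand apart). ADH4 and ADH6 differed by -0.46 and -0.08 (exact permutation p = 0.127 and 0.563). ADH5 was higher relative to these markers, by 0.35 with overlapping groups (exact permutation p = 0.0159, and 0.0571 without the libraries that stand apart).

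Of the 40 libraries, 9 stood apart on the first component (41.4% of the variance) of the 9732 genes with an FPKM variance above 1. Their FPKM sums were 255292 to 332974, against 311488 to 513059 in the other 31. The 9 libraries were 1 control library, 2 at 10 nM, 2 at 1 µM, 1 each at 10 µg/L and 0.1 g/L of glyphosate and 2 with Roundup. ADH1A averaged 53.4 FPKM in these 9 libraries and 95.5 in the others, and ADH5 23.3 and 43.2. Without them the log2 fold changes at 1 µM were -1.05 for ADH1A, -1.26 for ADH1B and -1.82 for ADH1C, of which only ADH1C was called (limma, adjusted p = 0.0846, 0.0684 and 0.0387). The ratios to ADH5 at 1 µM then differed by -0.79, -1.01 and -1.57 in the same order.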

How the data were processed

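Total RNA of HepaRG cells was sequenced as 40 directional libraries after removal of ribosomal RNA. According to the labels and methods, the authors used HISAT2 for alignment to GRCh38 and StringTie for assembly and quantification, and deposited FPKM for 234960 transcripts per library, 1 column for each library. The deposited columns that hold values just below 0, which FPKM cannot have, were recorded as a score, and were otherwise used like the rest. These values, 4 for PCB 126 and 6 for the herbicides, were set to 0. The same 5 control libraries stand in both tables, so comparisons of PCB 126 and of herbicides share their controls. Read depth was not examined, and the 5 libraries per group limit the precision.

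FPKM were summed per gene name, genes with a variance of FPKM above 1 among the libraries of a table were kept, and log2(FPKM + 1) was fitted with limma 3.58.1 in R 4.3.3, which took in every group of that table. Benjamini-Hochberg adjustment covered all genes tested, and the threshold was 0.05. The trend is a linear contrast over the control and the 3 concentrations, taken as equal steps. Single values were compared by 2-sided exact permutation tests, and these p-values were not adjusted over the gene family. Promoter sequences came from the RefSeq table of GRCh38.p14, where all 6 genes matched, and were aligned with Biopython 1.88. Other steps used Python 3.11.15.

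The members and lists were chosen with earlier results of these data known. All members were named, along with up to 4 called genes per list, ADH7, the genes that flank the cluster, and the 3 genes with the highest Pearson r to each member, except that for ADH1C only the first is reported here. ALDH2, HNF4A and CEBPA, among others not called, were named after their values were seen. Settings changed in turn were the pseudocount (0.1), the filter, 3 scalings between libraries, ordinary linear models, other sums over transcripts, other sets of libraries, a replicate block, array weights and leaving out each library in turn. Adding unnamed transcripts, leaving out libraries that stand apart, and ratios within libraries were chosen after seeing the data.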

Additional observations from a re-analysis of the deposited data

Results flagged for a closer look

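In 2 of 48 combinations of gene and group, a library lay far from the other 4 by Dixon's test at its 95% critical value of 0.71, which chance alone exceeds in about 1 of 20. ADH1C in PCB 126 10 nM replicate 4 had 51.0 FPKM, and the nearest of the other libraries had 19.5 (gap over range 0.728). ADH6 in glyphosate 1 mg/L replicate 4 had 24.2 FPKM, and the nearest had 18.1 (0.722). No member was called in either group against control. The 10 nM group is, however, part of the PCB 126 trend and F-test, which both called ADH1C.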

How the results depend on the processing

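The log2 fold changes of all 6 members at 1 µM PCB 126 were below 0 under each of the 36 alternatives. By their own values, the locus sum aside, they ran from -1.58 to -1.05 for ADH1A, -1.83 to -0.82 for ADH1B and -3.34 to -1.82 for ADH1C, while the number called moved. From 3 called at 1 µM, a pseudocount of 0.1 left 1, no filter 0, the ordinary linear model 0, the same model with a library-size term 1, the most abundant transcript 1 and the fit without the 9 libraries that stand apart 1. In the same order, 1.65%, 0.398%, 1.26%, 5.11%, 1.42% and 6.34% of all genes were called, against 1.87% in the main fit. Counts of 4 came from 75th-percentile scaling, quantile normalization and array weights, which added ADH6 (limma, adjusted p = 0.0461, 0.0339 and 0.0398), and from the locus sum, which added ADH4 (0.0275). Of all genes, these 4 settings called 11.3%, 11.1%, 9.70% and 4.04% in turn. The locus sum gives ADH1A, ADH1B and ADH1C 1 shared value, so each of its counts holds that value 3 times. Leaving out single libraries gave 1 to 3. The trend called 3, and 5 with the sum per assembled locus, the replicate block and the fit over all 40 libraries, with 3 to 5 when single libraries were left out, 5 without 10 nM replicate 4 or control replicate 5. The F-test across PCB 126 groups called 2, and 0 with a pseudocount of 0.1, no filter, both ordinary linear models, the most abundant transcript and without the libraries that stand apart, 4 with the locus sum and the replicate block, and 1 to 3 with single libraries left out. The cause of these changes was not tested. The exact tests gave 5 of 42 p-values under 0.05, and 5 or 6 under other scalings and sums.

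In the herbicide table array weights called 3 members in the F-test and 3 (ADH1A, ADH1B and ADH5) between Roundup and glyphosate, but the estimation of these weights did not converge there and they reached 30.4. No other alternative called a member in a herbicide comparison. Over all genes, calls at 1 µM ranged from 123 with the ordinary linear model or the most abundant transcript to 1100 with 75th-percentile scaling.

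The replicate block used the run of library numbers. Same-run libraries had a median correlation of 0.0501, over 0.1 in 40 of 140 pairs, against a median of -0.0202 between runs. Of the 40 libraries, however, 30 correlated best with their own run among the 5 runs. The main fit and the exact tests did not take the run into account. The block called 357 of all genes at 1 µM (3.66%) against 182 (1.87%) without it. It called 4 members there, adding ADH4 (limma, adjusted p = 0.023), 5 in the trend and 4 in the F-test, and 0 in all other comparisons. Precision was limited by 5 libraries per group, and read depth was not examined.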
